A study of Homo sapiens with 6 samples.

Results

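The metalloproteinase and TIMP genes were taken as every gene of the count table whose symbol is MMP, ADAM or ADAMTS followed by a number (MMP also with A or B), or TIMP1 to TIMP4. The rule gave 60 genes of the 34811 counted: 21 MMP, 17 ADAM, 18 ADAMTS and 4 TIMP genes. Their RNA levels were compared between 2 stable clones of OVCAR-3, an established human ovarian carcinoma cell line. OV3/SCR is clone #1, which carries a scrambled pRS shRNA and is wild-type for COX-1, the prostaglandin-forming cyclooxygenase encoded by PTGS1. OV3/COX1KD is clone #2, which carries a pRS shRNA against COX-1. Both were selected with puromycin, and each gave 3 RNA-seq libraries from independent passages, so each condition was 1 clone, and the knockdown and the clone cannot be told apart. P-values measure the spread between passages of a clone, not between clones.

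All 3 protease families belong to the metzincins, enzymes with a zinc ion in the active site that are made with a prodomain that keeps them latent. MMPs cut collagens, other matrix proteins and many signaling proteins, at the cell surface (membrane-type MMPs) or after secretion. ADAMs are membrane-anchored and release the ectodomains of growth factors, adhesion molecules and receptors, although several members lack the zinc-binding residues and act in adhesion. ADAMTS enzymes are secreted, and cut proteoglycans such as versican and aggrecan, trim procollagens or act on other matrix proteins. TIMPs are secreted proteins that block the active site of MMPs, and TIMP3 also blocks several ADAM and ADAMTS enzymes. In ovarian carcinoma these genes are studied for their part in invasion through the peritoneal matrix.

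Promoter sequences are shown for MMP7 and MMP10, the largest falls among the MMP genes that passed the filter on low counts, and for MMP11 and MMP15, the MMP genes that rose. They were chosen for their contrast in base composition and motifs. Other changed genes with a matched RefSeq promoter did not share it in full. Each is the 150 bases before the RefSeq start on the gene's strand, 5′ to 3′, placed on GRCh37 by exact match. Capitals mark 3 motifs on either strand. The TATA box was searched as TATAAA. The AP-1 element was searched as TGANTCA. The GC box was searched as GGGCGG. MMP7 lies at chr11:102401479-102401628 and MMP10 at chr11:102651360-102651509, both on the minus strand. MMP11 lies at chr22:24114886-24115035, inside the GENCODE span of the gene, and MMP15 at chr16:58059508-58059657, both on the plus strand.
MMP7: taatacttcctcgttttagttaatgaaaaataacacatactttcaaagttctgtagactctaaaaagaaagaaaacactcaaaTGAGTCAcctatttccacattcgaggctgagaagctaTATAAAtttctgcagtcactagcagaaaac
MMP10: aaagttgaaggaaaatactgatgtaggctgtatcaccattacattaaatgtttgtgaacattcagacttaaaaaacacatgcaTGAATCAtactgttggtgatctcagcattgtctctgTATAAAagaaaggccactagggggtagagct
MMP11: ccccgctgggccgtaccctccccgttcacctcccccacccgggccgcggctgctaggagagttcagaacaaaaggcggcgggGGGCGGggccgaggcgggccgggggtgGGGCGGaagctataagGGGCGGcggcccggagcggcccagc
MMP15: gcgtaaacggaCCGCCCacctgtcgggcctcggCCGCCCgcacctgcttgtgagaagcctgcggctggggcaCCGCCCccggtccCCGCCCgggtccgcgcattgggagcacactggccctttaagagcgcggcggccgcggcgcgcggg

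MMP7 had TATAAA 30 bases and TGANTCA 67 bases upstream of its start, and MMP10 had them 31 and 67 bases upstream. Their windows held 32.7% and 36.7% G or C. The windows of MMP11 and MMP15 held 77.3% and 76.7% G or C and several GC boxes. RefSeq promoters (table build GRCh38.p14) were matched for 34 of the 60 genes. Not matched were ADAM11, ADAMTS1, ADAMTS5, ADAMTS15 and TIMP2 of the genes called higher. Of the genes called lower, ADAM1, ADAMTS8, MMP2 and MMP25 were not matched. Over 250 upstream bases, TATAAA was present in 5 of the 34 (11.1% of 27305 promoters), TGANTCA in 4 (6.6%) and GGGCGG in 25 (42.3%). Among matched genes called higher, 0 of 7 held TATAAA, 1 of 7 held TGANTCA (ADAMTS12, 84 bases upstream) and 7 of 7 held GGGCGG. Among those called lower, TATAAA and TGANTCA were each in 2 of 7 (MMP7 and MMP10), and GGGCGG was in the other 5 (ADAM8, ADAM22, ADAM23, ADAMTS3 and ADAMTS14). These are matches of letters, and binding was not measured.

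Library totals lay between 25291505 and 27391538 counts, where the detection floor of 3 counts is worth 0.110 to 0.119 CPM, the counts of a gene scaled to a common library size. Floors and counting intervals cover counting error only. The 60 genes took 0.216 to 0.217% of the counts in the OV3/SCR libraries and 0.250 to 0.262% in the OV3/COX1KD libraries. OV3/COX1KD replicate 2 stood apart from its group: its counts differed from replicates 1 and 3 by a chi-square per degree of freedom of 4.44 and 5.74, against 1.74 to 2.91 for the other pairs within a condition and 40.3 to 53.3 between conditions. Calls that change without it are given beside the genes concerned. PTGS1 had 713, 658 and 641 counts in OV3/SCR and 456, 486 and 501 in OV3/COX1KD, 73.3% of the control level (log2 fold change -0.45, SE 0.0570, edgeR FDR = 1.34e-06). All 11 epithelial ovarian carcinoma markers checked were detected, with summed levels of 5717 to 5776 CPM in OV3/SCR and 7476 to 7672 CPM in OV3/COX1KD. They did not all go 1 way: at an edgeR FDR under 0.01, 9 were higher and 2 were lower. The lower ones were PAX8 (log2 fold change -0.76) and KRT7 (-0.14). Over all genes tested, 25.8% were higher and 22.1% lower. Summed fibroblast markers were at 11.3 to 12.0 and 6.86 to 7.53 CPM (8 genes), leukocyte markers at 1.24 to 1.53 and 0.675 to 1.28 CPM (5 genes) and endothelial markers at 2.45 to 3.22 and 2.87 to 3.56 CPM (3 genes), none at 0 in all libraries. COL1A1 held most of the fibroblast sum, at a mean of 10.1 CPM in OV3/SCR and 5.92 CPM in OV3/COX1KD. The part of these markers in the results was not tested. In bulk RNA, fewer cells of a type and less RNA per cell cannot be told apart.

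The families did not change as a block. Of the 41 genes that passed the filter on low counts, 12 were higher and 11 were lower in OV3/COX1KD at an edgeR false discovery rate (FDR, Benjamini-Hochberg over the 17309 genes tested) under 0.01, and 18 were not called. That is 56.1% of the 41, against 47.9% of all genes tested (25.8% higher and 22.1% lower), so the share called lay near the background. Past a log2 fold change of 0.5 at that FDR, 8 of the 41 were higher and 9 lower. Over all genes tested the share past it was smaller, 19.9% (9.87% higher and 10.0% lower). Changes estimated above 2.5-fold were found for ADAMTS5 and ADAMTS12 (higher) and for MMP2, MMP7, MMP10 and MMP25 (lower). That is 14.6% of the 41 against a background of 3.92% (1.58% higher, 2.34% lower). An edgeR test against 2.5-fold (glmTreat) called ADAMTS5 and MMP7 alone. The median log2 fold change of the 41 was -0.096, against -0.0087 over all genes, and its median size 0.48 against 0.28. These sizes were not matched for abundance, and several of the 41 genes were scarce, with a large SE. Libraries of the conditions did not overlap for 27 of the 41 genes, with a background of 63.2%. Without OV3/COX1KD replicate 2, 26 genes were called in place of 23, the additional ones being ADAM10, ADAM19 and MMP1, which then passed the filter.

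**Figure D1:**
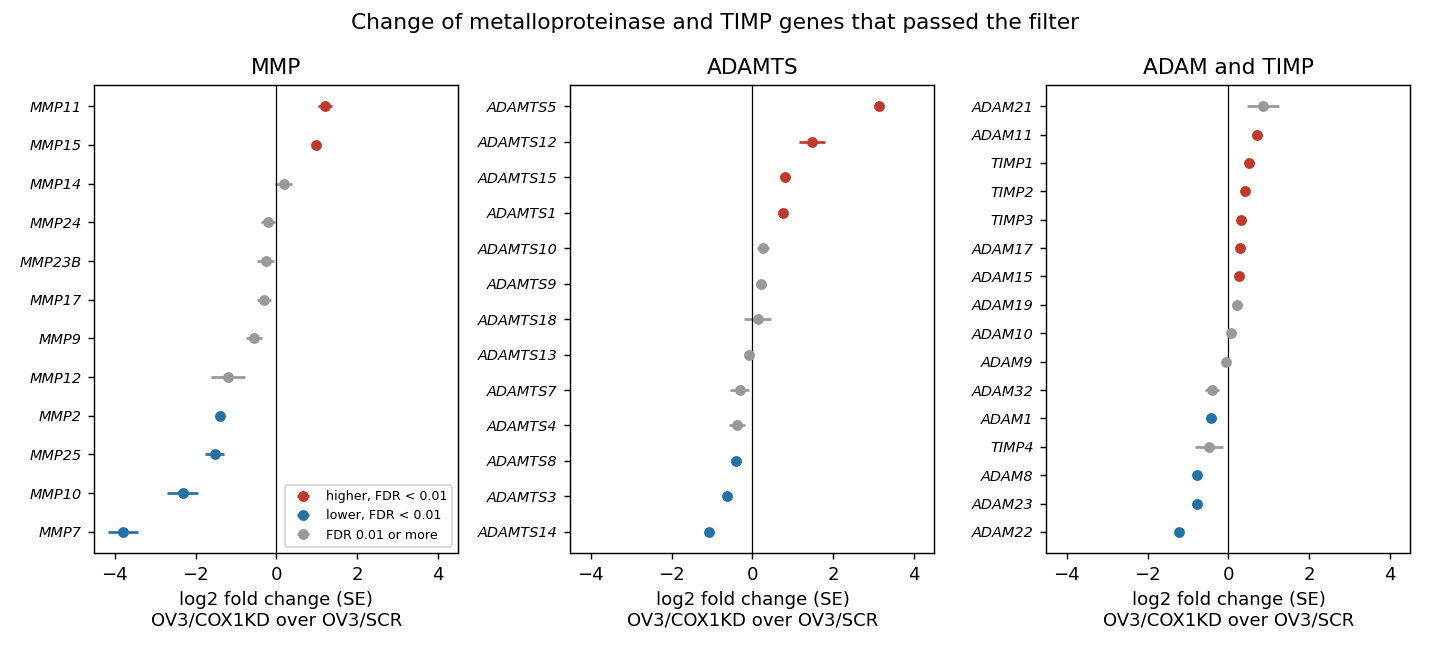
Log2 fold change of the 41 tested genes (x axis, OV3/COX1KD over OV3/SCR, bars are SE of the edgeR fit), with one row per gene and red, blue and grey for higher, lower and not called at an FDR of 0.01. MMP7 at -3.79 and ADAMTS5 at 3.14 are the extremes, and 3 of the 4 TIMP genes lie to the right of 0.

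Among MMP genes, changes went both ways, and MMP15, the most abundant member, rose. Of 12 tested, MMP11 and MMP15 were higher, MMP2, MMP7, MMP10 and MMP25 were lower and 6 were not called. The share of MMP genes called was near the 47.9% of all genes tested. No MMP gene was higher by over 2.5-fold, and 4 of the 12 (33.3%) were lower by that much. Over all genes tested these shares were 1.58% and 2.34%, not matched for abundance. These counts use the estimated fold change. An edgeR test against 2.5-fold (glmTreat) called only MMP7 among the MMP genes.

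MMP7 (matrilysin, ENSG00000137673, 11:102391239-102401481, minus strand) lacks the hemopexin domain of other MMPs and is made mainly by epithelial cells. It had 57, 38 and 37 counts in OV3/SCR and 2, 4 and 3 in OV3/COX1KD. Every knockdown library was close to the floor of 3 counts, and the groups did not overlap. Its level of 1.67 ± 0.400 CPM (SD, n = 3) in OV3/SCR was 14.3-fold the level of 0.117 ± 0.0402 in OV3/COX1KD (log2 fold change -3.79, SE 0.368, edgeR FDR = 3.27e-08).

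MMP10 (stromelysin 2, ENSG00000166670, 11:102641233-102651359, minus strand) cuts proteoglycans and activates other proMMPs. Its counts were 35, 18 and 20 in OV3/SCR and 5, 4 and 5 in OV3/COX1KD. OV3/SCR replicate 1 was the highest, and even the lowest OV3/SCR library was above all 3 knockdown libraries. The mean fell from 0.925 ± 0.337 to 0.182 ± 0.0201 CPM (SD, n = 3), 5.09-fold (log2 fold change -2.32, SE 0.392, edgeR FDR = 4.22e-05).

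MMP1 (interstitial collagenase, 11:102660132-102668891) lies 8.8 kb from MMP10 in the same chromosome 11 cluster, and opens the triple helix of fibrillar collagen. It did not pass the filter, with 5, 21 and 11 counts in OV3/SCR and 2, 1 and 0 in OV3/COX1KD. All 3 knockdown libraries were under the floor, and OV3/SCR replicate 2 was the highest library. The summed counts, 37 against 3, gave a ratio of 12.1 after scaling (95% exact interval 3.82 to 61.2, counting error only). With no filter on low counts the edgeR FDR was 1.84e-06, and DESeq2 on all counted genes gave an FDR of 0.00279. WTAPP1 covers 8.14% of the exon length of MMP1. The collagenase MMP13, in the same cluster, had 6 counts over the OV3/SCR libraries and 1 over the OV3/COX1KD libraries. Around MMP7 and MMP10, the other tested genes within 1 Mb were counted where their log2 CPM averaged 1 or more. There were 6, with 3 higher and 1 lower and a median of 0.24 on the log2 fold change scale. Of all genes tested, 25.8% were higher and 22.1% lower, not matched for abundance.

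The gelatinases cut denatured collagen and basement membrane collagen. MMP2 (ENSG00000087245, 16:55423612-55540603) had 340, 309 and 299 counts in OV3/SCR and 109, 122 and 121 in OV3/COX1KD. All 3 knockdown libraries were far below the lowest control library. Its level of 4.57 ± 0.271 CPM in OV3/COX1KD was 38.0% of the 12.0 ± 0.618 CPM (SD, n = 3) in OV3/SCR (log2 fold change -1.40, SE 0.0918, edgeR FDR = 1.06e-10). MMP9, the other gelatinase, had 43, 53 and 58 counts against 34, 30 and 38, with a log2 fold change of -0.56 (SE 0.197) and an edgeR FDR of 0.0194. The groups did not overlap but the gene was not called, except under total count scaling (edgeR FDR = 0.00826), and 18.4% of its exon length is shared with SLC12A5-AS1.

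Membrane-type MMPs went different ways. MMP15 (MT2-MMP, ENSG00000102996, 16:58059658-58080805), a transmembrane enzyme that activates proMMP2, had 3442, 3334 and 3460 counts in OV3/SCR and 6824, 6063 and 6971 in OV3/COX1KD. OV3/COX1KD replicate 2 was the lowest of its group and still well above every control library. The level rose 1.98-fold, from 130.1 ± 3.12 to 258 ± 14.9 CPM (SD, n = 3; log2 fold change 0.99, SE 0.0382, edgeR FDR = 3.57e-14). MMP25 (MT6-MMP, GPI-anchored, 16:3096063-3110727) had 70, 55 and 46 counts against 15, 24 and 19. It fell 2.87-fold, from 2.17 ± 0.426 to 0.755 ± 0.184 CPM (log2 fold change -1.52, SE 0.234, edgeR FDR = 1.44e-05). MMP25-AS1 shares 30.6% of its exon length, and without a stated strand setting the reads of both cannot be told apart. MMP14 (log2 fold change 0.18), MMP17 (-0.30) and MMP24 (-0.20) were not called.

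MMP11 (stromelysin 3, 22:24110413-24126503), which is activated inside the cell by furin, had 43, 38 and 30 counts in OV3/SCR and 88, 70 and 91 in OV3/COX1KD. The lowest knockdown library lay above the highest control library. It rose 2.29-fold, from 1.41 ± 0.230 to 3.23 ± 0.384 CPM (log2 fold change 1.19, SE 0.177, edgeR FDR = 9.33e-06). MMP12 (-1.20) and MMP23B (-0.27) were not called.

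**Figure D2:**
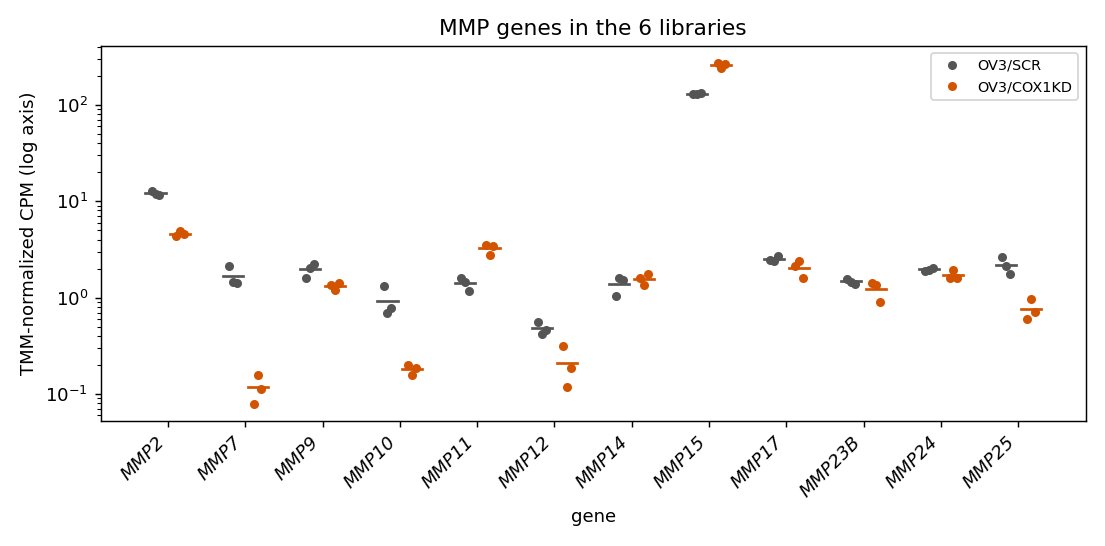
TMM-normalized CPM (log axis) of the 12 tested MMP genes in each library, grey for OV3/SCR and orange for OV3/COX1KD, with a bar at the mean of 3. MMP15 sits near 130.1 and 258 CPM, above all other MMP genes, while MMP7 and MMP10 drop to between 0.0794 and 0.198 CPM in the knockdown libraries.

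Levels between genes were compared per kilobase of exon (CPM per kb). The length was the union of all exons annotated for a gene, not that of the transcript expressed. Shares and ratios between genes therefore depend on the annotation too. MMP15 made up 79.1 to 80.8% of the summed level of the 19 MMP genes with a known length in the OV3/SCR libraries and 92.7 to 93.7% in the OV3/COX1KD libraries. MMP2 came next in OV3/SCR and went from a mean share of 6.66% to 1.49%. The MMP sum was 38.5 ± 0.677 CPM per kb in OV3/SCR and 65.3 ± 3.45 in OV3/COX1KD (SD, n = 3), and without MMP15 it was 7.70 ± 0.298 and 4.34 ± 0.165. The MMP sum was thus higher in OV3/COX1KD with MMP15 and lower without it. These sums are descriptions and were not tested.

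ADAMTS genes changed in both directions. Of 13 tested, ADAMTS1, ADAMTS5, ADAMTS12 and ADAMTS15 were higher, ADAMTS3, ADAMTS8 and ADAMTS14 were lower and 6 were not called, so that 53.8% were called against 47.9% of all genes. Of the 6 tested hyalectanases, the enzymes that cut versican and aggrecan, 3 rose and ADAMTS8 was lower, a call lost in 9 of 13 alternative settings. Both tested procollagen N-proteinases fell. With so few genes, these subgroup counts are descriptions and no difference between subgroups was tested.

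ADAMTS5 (aggrecanase 2, ENSG00000154736, 21:28290241-28339407) had 114, 82 and 89 counts in OV3/SCR and 808, 750 and 902 in OV3/COX1KD. The 3 knockdown libraries were all far above the control libraries. This was the largest rise of the 41 genes, 8.82-fold, from 3.62 ± 0.585 to 31.9 ± 1.96 CPM (SD, n = 3; log2 fold change 3.14, SE 0.0893, edgeR FDR = 3.77e-16). ADAMTS1 (21:28208074-28217728), an inhibitor of angiogenesis that also cuts versican, lies 72.5 kb away. It had 5157, 5061 and 4999 counts against 8251, 7951 and 8843, with no overlap, and rose 1.68-fold, from 193 ± 0.463 to 325 ± 7.54 CPM (log2 fold change 0.75, SE 0.0294, edgeR FDR = 4.22e-14). The 1 other gene within 1 Mb at that abundance had a log2 fold change of 0.42.

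ADAMTS15 (11:130318540-130346540), a versican-cutting enzyme, had 5059, 5128 and 4926 counts in OV3/SCR and 8753, 7920 and 8977 in OV3/COX1KD. OV3/COX1KD replicate 2 was the lowest of the 3 and lay above all controls. It rose 1.73-fold, from 192 ± 3.84 to 333 ± 16.1 CPM (log2 fold change 0.79, SE 0.0346, edgeR FDR = 2.00e-13). ADAMTS8, 20.0 kb away on the other strand, was lower (log2 fold change -0.41, edgeR FDR = 0.00779), with an FDR of 0.0112 under a replicate block. The 7 other genes within 1 Mb of this pair had a median log2 fold change of 0.44, with 5 higher and 0 lower. For all genes tested the shares were 25.8% higher and 22.1% lower, not matched for abundance.

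ADAMTS12 (5:33523640-33892124), which cuts the cartilage protein COMP, was scarce, with 12, 7 and 8 counts in OV3/SCR and 28, 17 and 29 in OV3/COX1KD. The groups did not overlap, and the level rose 2.80-fold, from 0.342 ± 0.0951 to 0.959 ± 0.244 CPM (log2 fold change 1.47, SE 0.327, edgeR FDR = 6.94e-04). The procollagen N-proteinases remove the N-terminal propeptides of fibrillar collagens. ADAMTS14 (10:72432262-72522197) had 257, 249 and 265 counts against 121, 131 and 107, and fell from 9.80 ± 0.379 to 4.68 ± 0.614 CPM (log2 fold change -1.07, SE 0.102, edgeR FDR = 2.63e-08). ADAMTS3 (4:73146686-73434938) had 534, 546 and 554 counts against 325, 330 and 378, and fell from 20.8 ± 0.710 to 13.4 ± 0.673 CPM (log2 fold change -0.63, SE 0.0639, edgeR FDR = 5.91e-08). For both genes every knockdown library was below every control library. Around ADAMTS14, the 15 genes within 1 Mb had a median log2 fold change of 0.53, with 11 higher and 2 lower. The shares over all genes tested were 25.8% higher and 22.1% lower, not matched for abundance. ADAMTS4 (-0.38), ADAMTS7 (-0.32), ADAMTS9 (0.21), ADAMTS10 (0.26), ADAMTS13 (-0.096) and ADAMTS18 (0.13) were not called. The sign for ADAMTS18 turned in fits that lacked replicate 3 of OV3/SCR or replicate 1 of OV3/COX1KD.

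**Figure D3:**
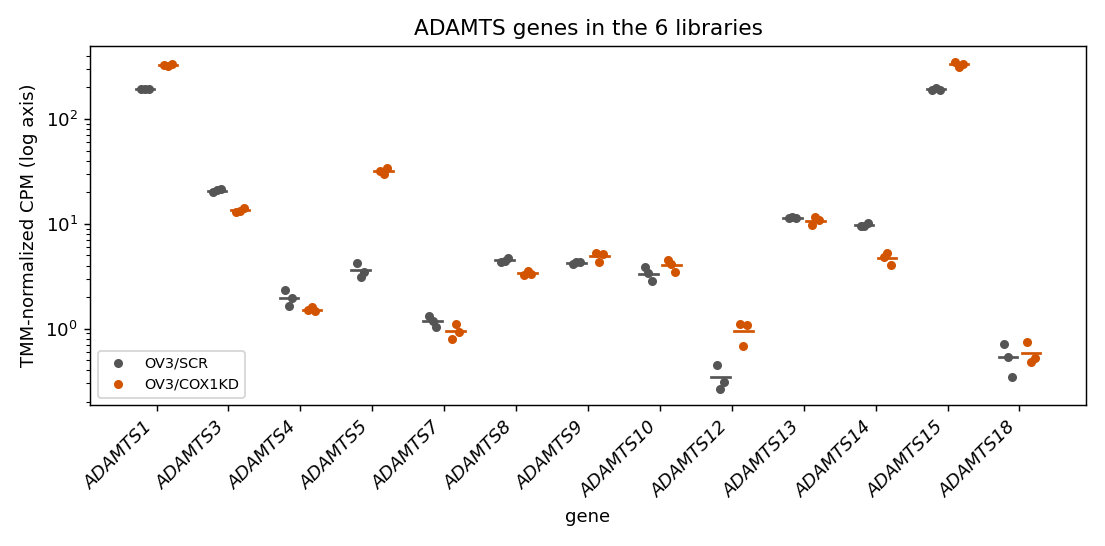
TMM-normalized CPM (log axis) of the 13 tested ADAMTS genes in each library, grey for OV3/SCR and orange for OV3/COX1KD, with a bar at the mean of 3. ADAMTS1 and ADAMTS15 lead in both conditions, and ADAMTS5 moves from 3.62 to 31.9 CPM.

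Per kilobase, ADAMTS15 and ADAMTS1 carried most of the ADAMTS level in both conditions, with mean shares of 46.9% and 38.9% in OV3/SCR and 50.2% and 40.4% in OV3/COX1KD. ADAMTS5 went from 0.544% to 2.96%. The summed level of the 18 genes was 68.2 ± 0.632 CPM per kb in OV3/SCR and 110.4 ± 3.55 in OV3/COX1KD (SD, n = 3), and without ADAMTS1 and ADAMTS15 it was 9.68 ± 0.0732 and 10.4 ± 0.128.

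ADAM genes changed in both directions, all by less than 2.5-fold. Of the 12 tested, ADAM11, ADAM15 and ADAM17 were higher, ADAM1, ADAM8, ADAM22 and ADAM23 were lower and 5 were not called. That is 58.3% called, ADAM1 included, near the 47.9% of all genes tested. The main sheddases were among the abundant genes. ADAM10, which cuts Notch receptors and cadherins, had 9864, 9516 and 9582 counts in OV3/SCR and 9775, 9226 and 10513 in OV3/COX1KD. The groups overlapped and it was not called (log2 fold change 0.058, SE 0.0306, edgeR FDR = 0.112). Without OV3/COX1KD replicate 2 the edgeR FDR was 0.00104, and under total count scaling the log2 fold change was -0.020. ADAM17 (2:9628615-9696861), which releases TNF and ligands of the EGF receptor, had 1933, 1776 and 1825 counts against 2181, 2079 and 2297. It rose 1.21-fold, from 70.3 ± 2.18 to 85.2 ± 2.01 CPM, with no overlap (log2 fold change 0.28, SE 0.0373, edgeR FDR = 2.92e-06), and shares 11.7% of its exon length with other genes. ADAM15 was the most abundant ADAM gene per kilobase of annotated exon and was higher (log2 fold change 0.26). Its mean share of the ADAM sum was 54.4% in OV3/SCR and 60.1% in OV3/COX1KD. That sum includes ADAM1, with mean shares of 5.20% and 3.59%.

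ADAM8 (10:135075924-135090372), an active protease found on leukocytes and tumor cells, had 305, 348 and 341 counts in OV3/SCR and 183, 204 and 180 in OV3/COX1KD. The groups were apart, and the level fell from 12.6 ± 1.06 to 7.38 ± 0.699 CPM (log2 fold change -0.78, SE 0.0910, edgeR FDR = 4.36e-07). ADAM11, ADAM22 and ADAM23 lack protease activity, and are known mainly from neurons, where ADAM22 and ADAM23 bind LGI proteins. ADAM22 (7:87563458-87832204) had 1205, 1142 and 1242 counts against 488, 458 and 561, and fell from 45.6 ± 2.15 to 19.5 ± 1.40 CPM (log2 fold change -1.22, SE 0.0569, edgeR FDR = 5.45e-13). ADAM23 had 161, 165 and 163 counts against 76, 97 and 104, and fell from 6.22 ± 0.161 to 3.59 ± 0.50 CPM (log2 fold change -0.79, SE 0.119, edgeR FDR = 1.20e-05). ADAM11 went the other way, with 76, 76 and 69 counts against 112, 108 and 134, and a rise from 2.81 ± 0.128 to 4.59 ± 0.381 CPM (log2 fold change 0.71, SE 0.129, edgeR FDR = 9.76e-05). For none of these 3 genes did the groups overlap. ADAM1 is a pseudogene whose exons lie wholly inside those of MAPKAPK5 (100% of the length), so its call (log2 fold change -0.43, edgeR FDR = 0.00340, groups overlapping) cannot be assigned to it, and was lost in 5 of 13 alternative settings, DESeq2 (FDR = 0.0646) and 4 of the 6 fits that left out a library (edgeR FDR 0.0128 to 0.0358). ADAM9 (-0.066), ADAM19 (0.20), ADAM21 (0.85) and ADAM32 (-0.41) were not called. ADAM9 was called lower under total count scaling (edgeR FDR = 3.99e-04). ADAM19 passed the threshold with no filter (edgeR FDR = 0.00777) and without OV3/COX1KD replicate 2 (edgeR FDR = 3.28e-04), and without OV3/SCR replicate 2 so did ADAM21 (edgeR FDR = 0.00898).

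The inhibitors TIMP1, TIMP2 and TIMP3 all rose, by 1.24-fold to 1.43-fold. That is 3 of the 4 TIMP genes (75.0%), against 25.8% of all genes tested called higher, not matched for abundance. With 4 genes, this count is a description. TIMP1 (X:47441807-47446188), which inhibits most soluble MMPs, had 416, 399 and 449 counts in OV3/SCR and 581, 591 and 596 in OV3/COX1KD. The control libraries all lay below the knockdown libraries, and the level rose from 16.1 ± 1.11 to 23.0 ± 0.609 CPM (log2 fold change 0.52, SE 0.0624, edgeR FDR = 6.85e-07). TIMP2 (17:76849059-76921469), which also takes part in the activation of proMMP2 by MT1-MMP, had 2824, 2823 and 2811 counts against 3572, 3492 and 3851. It rose from 107.5 ± 1.51 to 141.8 ± 2.59 CPM (log2 fold change 0.40, SE 0.0321, edgeR FDR = 2.15e-09), with 9.52% of its exon length shared with other genes. TIMP3 (22:33197691-33259028), which is bound to the matrix, had 1697, 1639 and 1743 counts against 2055, 1874 and 2224. It rose from 64.6 ± 2.42 to 79.9 ± 4.58 CPM (log2 fold change 0.31, SE 0.0439, edgeR FDR = 5.75e-06). The groups did not overlap for TIMP2 or TIMP3. TIMP4 was near the limit of the filter, with 14, 11 and 18 counts against 8, 13 and 9, and was not called (log2 fold change -0.48, SE 0.351, edgeR FDR = 0.249).

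**Figure D4:**
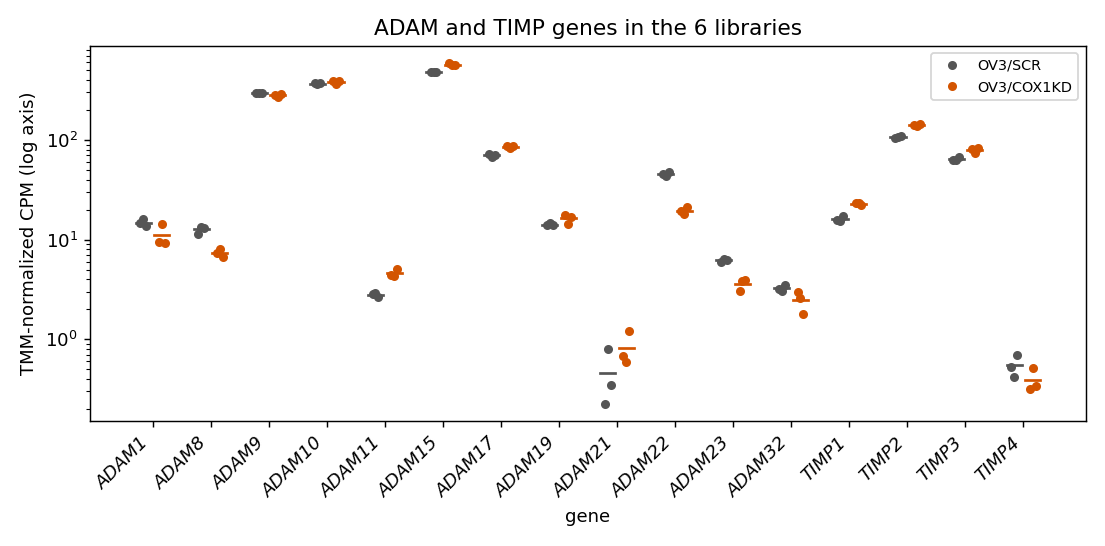
TMM-normalized CPM (log axis) of the 12 tested ADAM genes and 4 TIMP genes in each library, grey for OV3/SCR and orange for OV3/COX1KD, with a bar at the mean of 3. ADAM22 falls from 45.6 to 19.5 CPM, ADAM10 is near 368 and 383 CPM, and TIMP1, TIMP2 and TIMP3 are higher in all 3 knockdown libraries.

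The summed TIMP level was 42.9 ± 1.54 CPM per kb in OV3/SCR and 56.4 ± 0.919 in OV3/COX1KD (SD, n = 3), and its ratio to the MMP sum was 1.12 ± 0.0257 and 0.865 ± 0.0346. Without MMP15 the ratio was 5.58 ± 0.363 in OV3/SCR and 13.03 ± 0.687 in OV3/COX1KD, so it was lower in OV3/COX1KD with that gene and higher without it. These are ratios of RNA levels, not of protein or activity, and were not tested.

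**Figure D5:**
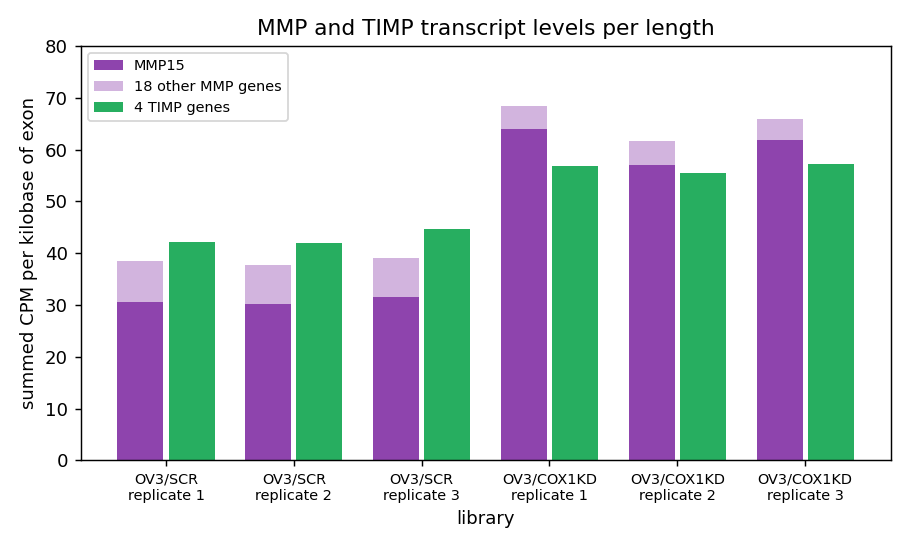
Summed CPM per kilobase of exon in each of the 6 libraries, with MMP15 and the 18 other MMP genes stacked and the 4 TIMP genes beside them. MMP15 fills most of each MMP bar and the other MMP genes shrink from a mean of 7.70 to 4.34.

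The other 19 genes did not pass the filter, and 12 of them had 3 counts or fewer in every library. Among the rest, ADAM12, a meltrin with protease activity, had 10, 3 and 5 counts in OV3/SCR and 0, 0 and 0 in OV3/COX1KD. OV3/SCR replicate 2 was itself at the floor, so no fold is given. With no filter on low counts the edgeR FDR of ADAM12 was 1.36e-04, lower in OV3/COX1KD. DESeq2 on all counted genes gave it no FDR. MMP16 had 1, 3 and 0 counts against 2, 9 and 2. At this depth no difference can be given for the 12 genes at the floor. MMP23A and MMP23B are near-identical copies, and ADAM20 and ADAM21 are similar, so the reads of each pair may be split between copies.

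Genes that act with these families were counted from 4 lists, which were not matched for abundance to all genes tested. Of 16 other metzincins and relatives, 11 were tested, with 2 higher and 4 lower (54.5% called, near the 47.9% of all genes tested, median log2 fold change -0.32). TLL2, an astacin-family protease of the tolloid group, changed most, with 936, 973 and 937 counts in OV3/SCR and 155, 161 and 170 in OV3/COX1KD (log2 fold change -2.52, SE 0.0644, edgeR FDR = 7.15e-17). Of 24 activators, anchors and other inhibitors, 20 were tested, with 6 higher and 8 lower (70.0% called against 47.9%, median -0.078). LRP1, the receptor that clears MMPs and TIMPs from outside the cell, had 920, 970 and 1007 counts against 2339, 1683 and 2347 (log2 fold change 1.17, edgeR FDR = 3.60e-10). PCSK5, a proprotein convertase, had 655, 672 and 627 counts against 273, 227 and 293 (log2 fold change -1.27, edgeR FDR = 1.02e-11).

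Among 32 known substrates of ADAM sheddases, 29 were tested, with 14 higher and 7 lower (72.4% called, against 47.9% of all genes, of which 25.8% were higher and 22.1% lower, median log2 fold change 0.21). The lists were not tested as sets, and several of their genes were abundant, where small changes are called more readily. BTC, a ligand of the EGF receptor, and the chemokine CXCL16 were higher (1.84 and 1.03). CD44, the cadherin CDH2 and the receptor IL6R were lower (-1.01, -2.13 and -1.66). Of 12 substrates of ADAMTS proteases, 7 were tested, 0 were higher and 4 were lower (57.1% called, near the 47.9% of all genes, median -0.43). VCAN, which encodes versican, had 332, 299 and 314 counts in OV3/SCR and 114, 102 and 131 in OV3/COX1KD (log2 fold change -1.41, edgeR FDR = 1.29e-10). The substrate levels are of RNA, and cleavage was not measured.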

How the data were processed

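RNA-seq was made from 3 independent passages of each clone (TruSeq, Illumina HiSeq). Per the study's methods, TopHat2 (version 2.0 in the submitters' processing notes) placed the reads on hg19 and HTSeq summed them by gene. The deposited values are these raw counts, for 34811 genes. The annotation and the strand setting are not given in the sources used here. Conditions and replicate numbers came from the labels.

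The test was the quasi-likelihood test of edgeR 4.0.16 (R 4.3.3), with TMM scaling, filterByExpr (17309 genes kept), a model of condition alone and p-values adjusted by Benjamini-Hochberg across those genes. The SE is the size of the log2 fold change over the root of F. The common biological coefficient of variation was 3.21%. Positions and exon lengths came from GENCODE 44 on GRCh37, which held 58 of the 60 genes (not MMP12 and MMP28). Promoters came from RefSeq. The fit was tested on simulated data.

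The genes and the lists were chosen with earlier results of these data known. Described with counts were genes past a log2 fold change of 0.5 in size and called at FDR 0.01, all TIMPs, ADAM10, ADAM17, the MMPs named by the study (MMP1, MMP2, MMP7 and MMP9), and untested genes with over 3 counts in all 3 libraries of a condition. ADAM12, MMP13 and MMP16 were added after their values were seen. List genes are described where the log2 fold change passed 1 at an FDR under 0.01. Alternatives were other scalings and filters, DESeq2 1.42.0, a replicate block, each library left out, and glmTreat.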

Additional observations from a re-analysis of the deposited data

How the results depend on the processing

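Of 526 single-gene values under the alternatives, 503 kept their direction and their side of the FDR threshold of 0.01, and 21 of the 23 called genes were past it in every setting that tested them, the exceptions being ADAM1 and ADAMTS8. The sign turned for ADAM10 under total count scaling (-0.020) and for ADAMTS18 when libraries were left out (-0.092 to 0.40). With at least 10 counts in every library, 1 gene was higher and 2 were lower by over 2.5-fold, since fewer genes were tested. The glmTreat test against 2.5-fold called 1 higher (ADAMTS5) and 1 lower (MMP7). Leaving out a library gave 12 to 14 higher and 9 to 12 lower, and 2 to 3 and 4 to 5 above 2.5-fold. Scarce genes such as MMP1 and ADAM12 were limited by depth.

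With the replicate number as a block there were 12 higher and 10 lower (ADAMTS8 lost, FDR = 0.0112), and 2 and 4 above 2.5-fold. No other call changed. Same-numbered libraries correlated by 0.00447 to 0.0424 in their deviations, and different-numbered by -0.0266 to 0.0181, so the numbers were not taken as pairs.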
